A study of Mus musculus with 18 samples.

Results

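The 38 genes described here work in G2 phase and mitosis, the stages in which a cell with replicated DNA separates its chromosomes and splits. They were taken as a list of symbols, and 37 of the 38 had a probe set of their own on the array, among 19938 genes with one. Ccnb1 was not matched and is not analysed here. All 37 passed the filter on dim genes, which kept 13387 genes for testing. Levels are log2 values after RMA, the robust multi-array average used for Affymetrix arrays, so a difference of 1 is a doubling, and levels are compared between samples of 1 gene and not between genes.

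The study measured bone marrow cells of C57BL/6 mice labelled as Ly-6C(hi) monocytes or as neutrophils, 9 arrays of each. Controls were Zeb2(fl/fl) mice without Cre, with 4 arrays per cell type from mice given poly(I:C) and 1 from an untreated mouse. The 4 arrays per cell type labelled Zeb2-deficient came from Zeb2(fl/fl);Mx1-Cre(tg) mice given poly(I:C). Zeb2 encodes a zinc finger and homeodomain repressor of transcription, and Mx1-Cre is switched on by interferon, which poly(I:C) induces in many tissues and blood lineages. Treatment was 150 ug into the peritoneum, given 2 times inside 48 h, and cells were collected after 3 weeks. Every deficient sample carries Cre and no control does, so an effect of Cre and an effect of Zeb2 loss cannot be told apart. Whether each array stands for its own animal is not stated, so the p-values reflect only how far these arrays differ among themselves, and that spread can be technical.

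Entry into mitosis depends on cyclins that accumulate in G2 phase and activate Cdk1. The kinases Plk1 and Aurora A and B then drive spindle assembly and chromosome attachment, the spindle checkpoint holds the cell until every kinetochore is attached, and the anaphase-promoting complex with Cdc20 releases the sister chromatids by marking securin and cyclin B for destruction. Most of these genes are transcribed in G2 phase from promoters with CCAAT boxes and a CHR element (the cell cycle genes homology region), on which the DREAM complex represses in resting cells and B-Myb and FoxM1 activate in dividing cells. In bone marrow, granulocyte and monocyte progenitors divide, whereas mature neutrophils have left the cycle.

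Several facts of the whole series bear on what follows. The 17 measured monocyte markers averaged 9.37 to 9.56 in the control monocyte arrays, against 4.79 to 4.90 in control neutrophils, and 19 markers of mature neutrophils averaged 11.52 to 11.57 in control neutrophils. Zeb2 itself read 9.86 to 10.08 in control and 8.74 to 9.84 in deficient monocytes, whose groups did not overlap, yet the difference of -0.48 ± 0.24 (SE) did not pass the limma test (adjusted p = 0.272). In neutrophils it read 6.86 to 7.54 in controls and 7.10 to 8.25 in deficient samples, a direction opposite to the label. Nothing in the sources used here says that the probe set lies in the deleted part, so these levels do not check the labels. The arrays also deviated together in sets given by the numbers in their titles. Set A holds controls 1 to 3 and deficient arrays 1 and 2, set B holds controls 4 and 5 and deficient arrays 3 and 4, and what separates the sets is not stated.

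The mean level of the 37 genes was higher in deficient than in control monocytes, with a wide spread among the deficient arrays. In control monocytes it was 6.84, 6.77, 6.95 and 7.03 in arrays 1, 2, 4 and 5 (6.90 ± 0.11, SD, n = 4). In deficient monocytes it was 7.15, 6.86, 7.59 and 8.25 in arrays 1 to 4 (7.46 ± 0.61, SD, n = 4). Deficient array 2 lay inside the control range and the other three above it. The untreated control monocyte array stood at 6.88, within the treated controls. Neutrophils sat lower, at 6.30, 6.23, 6.17 and 6.51 in controls (6.30 ± 0.15, SD, n = 4) and 6.48, 6.42, 6.69 and 6.89 in deficient arrays (6.62 ± 0.21, SD, n = 4). The untreated neutrophil array, at 6.11, was below all treated ones. In these bulk samples a larger share of dividing cells and more of each transcript per cell cannot be told apart.

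**Figure D1:**
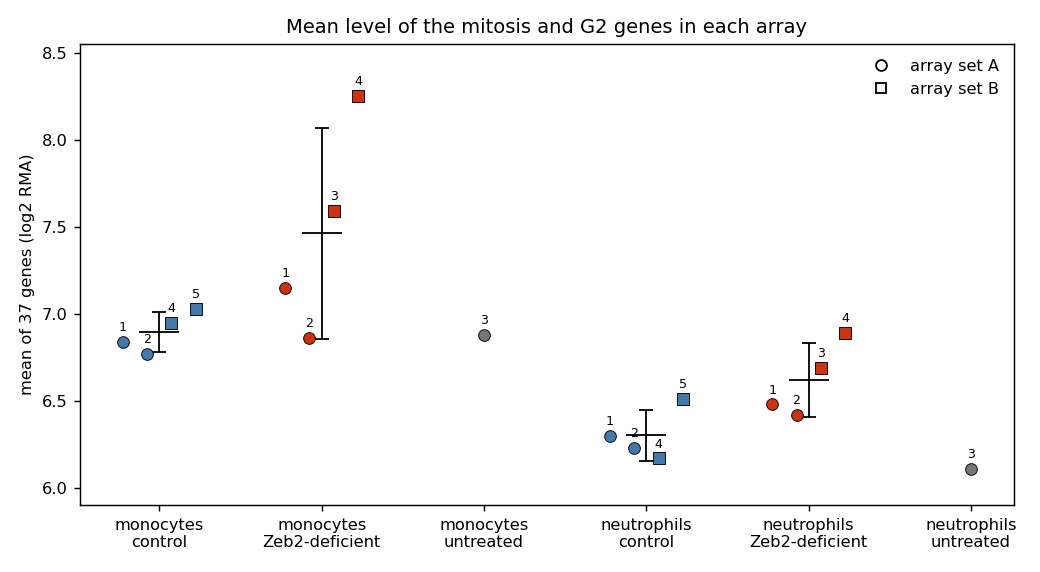
Mean log2 RMA level of the 37 genes in each of the 18 arrays, by cell type and group, with the number of the array above each point; horizontal lines are group means with SD bars (n = 4), circles are array set A and squares set B. Deficient monocyte arrays 3 and 4 stood at 7.59 and 8.25, above every control monocyte array, while deficient array 2, at 6.86, lay among them.

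Because the genes moved together, the sequences just upstream of them are shown before the single values. RefSeq promoter windows on GRCm38.p6, running from 250 bases before to 50 after the annotated start, were found for 33 of the 38 genes, Ccnb1 included. Aurkb, Cdc25c, Kif20a, Tpx2 and Ccna2 had none. The CHR element, searched as TTTGAA on both strands, was present in 25 of these 33 windows (75.8%), against 18.1% of all 27025 gene windows. It lay within 50 bases of the start in 23 windows (69.7%), against 4.92% of all. A CCAAT box, searched as CCAAT on both strands, was present in 24 (72.7% against 37.9%), and 15 windows held more than 1 (45.5% against 12.2%). An E2F-like core, GGCGGGA on both strands, was present in 9 (27.3% against 11.4%). Matches that share bases were counted for each motif. CHR and CCAAT occurred together in 21 windows (63.6%), against 7.12% of all. These counts describe letters in the windows and not bound sites.

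The stretches printed here belong to the 5 genes with the smallest p in monocytes whose window holds both motifs. To these Racgap1 was added, chosen after its values were seen because its level differed least between deficient and control monocytes. Each runs 5′ to 3′ on the gene's strand from 220 bases before to 30 after the start, with CHR and CCAAT matches on either strand in capitals (TTCAAA and ATTGG are the reverse matches). They lie at chr9:70421525-70421774 (minus strand) for Ccnb2, chr7:135716350-135716599 (minus) for Mki67, chr19:37376162-37376411 (plus) for Kif11, chr3:27153849-27154098 (minus) for Ect2, chr4:118437314-118437563 (minus) for Cdc20 and chr15:99651627-99651876 (minus) for Racgap1.
Ccnb2: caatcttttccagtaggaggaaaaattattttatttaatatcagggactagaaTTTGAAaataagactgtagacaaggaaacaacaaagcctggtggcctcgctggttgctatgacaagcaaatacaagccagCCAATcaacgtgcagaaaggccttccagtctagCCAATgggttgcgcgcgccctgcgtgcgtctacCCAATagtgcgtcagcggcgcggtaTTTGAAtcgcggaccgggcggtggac
Mki67: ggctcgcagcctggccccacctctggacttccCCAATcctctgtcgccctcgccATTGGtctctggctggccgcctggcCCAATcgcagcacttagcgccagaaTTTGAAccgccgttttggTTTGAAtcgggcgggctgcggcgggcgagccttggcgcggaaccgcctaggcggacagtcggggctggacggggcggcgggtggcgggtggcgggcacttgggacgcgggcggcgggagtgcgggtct
Kif11: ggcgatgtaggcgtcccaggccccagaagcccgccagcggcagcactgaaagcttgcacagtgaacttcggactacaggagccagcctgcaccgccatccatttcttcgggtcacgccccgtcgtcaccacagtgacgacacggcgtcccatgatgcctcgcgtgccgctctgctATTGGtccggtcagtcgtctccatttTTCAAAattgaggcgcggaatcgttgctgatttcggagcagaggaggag
Ect2: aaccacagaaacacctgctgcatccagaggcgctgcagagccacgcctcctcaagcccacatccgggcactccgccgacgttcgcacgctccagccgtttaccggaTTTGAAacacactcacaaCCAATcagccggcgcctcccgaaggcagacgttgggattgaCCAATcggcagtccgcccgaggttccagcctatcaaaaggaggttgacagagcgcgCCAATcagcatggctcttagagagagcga
Cdc20: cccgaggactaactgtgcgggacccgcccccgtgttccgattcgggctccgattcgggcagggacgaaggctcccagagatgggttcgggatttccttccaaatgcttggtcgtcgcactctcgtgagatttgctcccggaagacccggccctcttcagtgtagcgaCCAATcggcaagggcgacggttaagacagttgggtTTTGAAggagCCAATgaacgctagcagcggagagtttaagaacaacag
Racgap1: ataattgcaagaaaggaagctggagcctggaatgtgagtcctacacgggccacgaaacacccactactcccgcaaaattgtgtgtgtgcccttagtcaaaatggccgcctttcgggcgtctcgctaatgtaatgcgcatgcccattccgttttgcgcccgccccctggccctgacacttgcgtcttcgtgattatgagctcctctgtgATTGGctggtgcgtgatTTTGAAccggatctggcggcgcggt
Ccnb2 shows 3 CCAAT boxes that begin 87, 54 and 21 bases upstream of the start, evenly spaced, and a CHR element just after it. Mki67 has the same motifs further upstream, with its CHR elements 116 and 98 bases before the start. Kif11 and Cdc20 have their CHR elements 19 and 18 bases upstream. Racgap1 carries a CCAAT box and a CHR element within 12 bases of its start. Mad2l1 and Nuf2, with the largest monocyte differences of all 37 genes, belong to the 5 windows with neither motif, the others being Birc5, Ncaph and Nusap1. The median monocyte difference was 0.60 over those 5 genes and 0.57 over the 21 with both motifs. It was 0.70 over the 4 with CHR only and 0.69 over the 2 measured genes with CCAAT only.

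In monocytes all 37 genes had a higher mean in deficient than in control samples, as did 5706 of all 13387 genes. The 37 varied together across the arrays, so their signs are not 37 separate observations. By the limma test 4 of the 37 rose at an adjusted p under 0.05. That is 10.8% of the genes, against 5.11% of all genes tested, and none was lower, against 2.44% of all. The 4 were Mad2l1, Nuf2, Anln and Ccnb2, which belong to 4 different roles. The median difference was 0.58, against -0.03 over all genes, and 25 of the 37 had an unadjusted p under 0.05, as did 2699 of all 13387 genes. The 4 deficient arrays lay above all 4 controls for Ccnb2, Bub1b, Nuf2 and Kif20a, 4 of 37 genes, against 6.12% of all genes. Deficient array 4 was the highest of its group for 36 genes and deficient array 2 the lowest for 34. The test takes 1 spread per gene over all groups, and the deficient monocytes spread most. With only the arrays compared in the fit, Ccnb2 alone was called, 2.7% of the 37 against 2.97% of all genes.

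**Figure D2:**
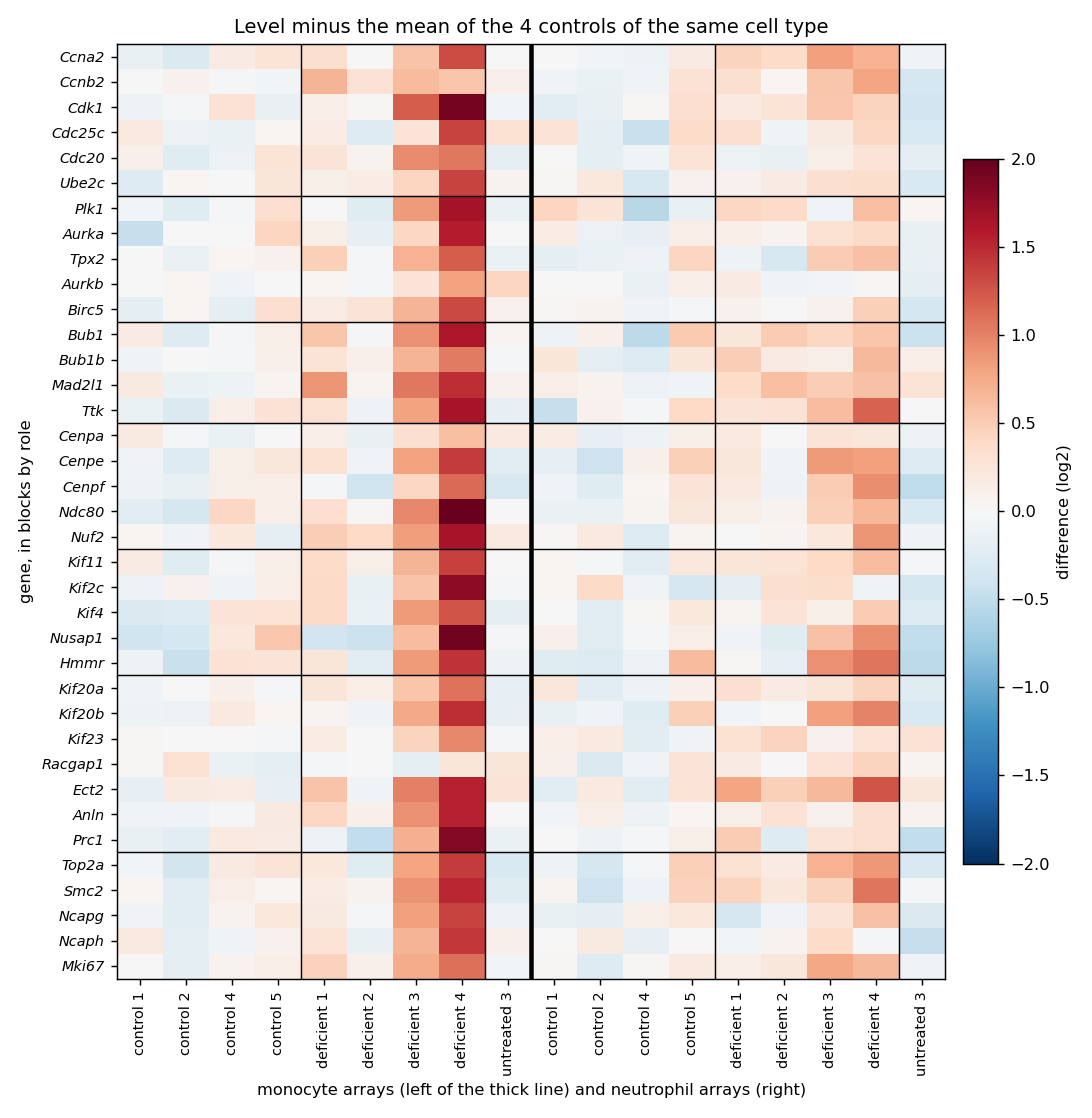
Level of each of the 37 genes (rows, in blocks by role) in each of the 18 arrays (columns), as the log2 difference from the mean of the 4 treated controls of the same cell type; red is higher and blue lower, and the thick line divides monocytes from neutrophils. The column of deficient monocyte array 4 is the highest of the deficient monocyte arrays for every gene but Ccnb2, and the column of deficient monocyte array 2 is close to white.

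The cyclins, Cdk1 and the activators of the anaphase-promoting complex held 1 called gene. Ccnb2 (cyclin B2, a partner of Cdk1) read 8.82, 8.89, 8.76 and 8.75 in control monocytes and 9.48, 9.09, 9.44 and 9.36 in deficient ones. The groups did not overlap, and unlike most of the genes Ccnb2 was as high in deficient array 1 as in arrays 3 and 4. The difference was 0.54 ± 0.15 (SE), or 1.45-fold (limma adjusted p = 0.0289). Cdk1, the kinase that drives mitotic entry, read 6.79, 6.68, 7.86 and 8.57 in deficient arrays against 6.50 to 6.94 in controls. Deficient arrays 3 and 4 were far above the controls and arrays 1 and 2 among them, and its difference of 0.83 ± 0.29 did not pass (adjusted p = 0.102). Ccna2 (cyclin A2, which acts in S and G2 phase) differed by 0.55, Cdc20 by 0.58, Ube2c (the ubiquitin-conjugating enzyme of the anaphase-promoting complex) by 0.51 and Cdc25c (the phosphatase that activates Cdk1) by 0.37. None of these 4 passed the test.

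None of the 5 mitotic kinases and chromosome passenger proteins passed. Birc5 (survivin, a subunit of the passenger complex) had the smallest p, with a difference of 0.60 ± 0.20 (adjusted p = 0.0821). Tpx2, which activates Aurora A at the spindle, differed by 0.59, Plk1 by 0.57, Aurka by 0.48 and Aurkb by 0.27. For Plk1 the deficient arrays read 5.88, 5.63, 6.72 and 7.53 against 5.62 to 6.21 in controls, so only arrays 3 and 4 stood above.

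The spindle checkpoint had the highest median of the 7 roles, 0.71 over 4 genes. Mad2l1 (Mad2, which holds back the anaphase-promoting complex) read 7.50, 7.18, 7.22 and 7.38 in controls and 8.21, 7.37, 8.38 and 8.80 in deficient arrays. Deficient array 2 lay among the controls and the other deficient arrays above them. The difference was 0.87 ± 0.20, or 1.83-fold, the largest of the 37 (adjusted p = 0.0125). The kinase Bub1 differed by 0.76 ± 0.26 (adjusted p = 0.0901), Ttk (Mps1, the kinase at the top of the checkpoint) by 0.66 ± 0.29 and Bub1b (BubR1) by 0.52 ± 0.19. Bub1b was above all controls in every deficient array, at 7.45 to 8.38 against 7.27 to 7.45, although the nearest pair of arrays reads alike at this rounding.

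Among centromere and kinetochore genes, Nuf2 rose. It encodes a subunit of the NDC80 complex, which binds spindle microtubules. It read 6.48, 6.37, 6.65 and 6.27 in controls and 6.93, 6.84, 7.28 and 8.09 in deficient arrays, with no overlap. The difference was 0.84 ± 0.23, or 1.80-fold (adjusted p = 0.0324). Ndc80, its partner in the complex, differed by 0.82 ± 0.30 (adjusted p = 0.111), and the kinetochore motor Cenpe by 0.62 ± 0.27. Cenpf differed by 0.27 and Cenpa, the histone H3 variant that marks centromeres, by 0.23, both below the median of the 37.

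No spindle motor or spindle protein passed. Kif11 (Eg5, which pushes the spindle poles apart) differed by 0.63 ± 0.20 (adjusted p = 0.0646), Kif2c by 0.65, Kif4 by 0.60, Hmmr by 0.58 and Nusap1 by 0.43. Nusap1 had the widest spread of all, at 6.52, 6.46, 7.51 and 8.82 in deficient arrays against 6.49, 6.55, 7.10 and 7.44 in controls.

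Of the 7 genes of the spindle midzone and cytokinesis, Anln rose. It encodes anillin, a scaffold of the contractile ring, and read 6.86, 6.85, 6.89 and 7.10 in controls and 7.34, 7.03, 7.84 and 8.48 in deficient arrays. Only deficient array 2 lay inside the control range. The difference was 0.75 ± 0.21, or 1.68-fold (adjusted p = 0.0377), and it missed the threshold with the title number as a replicate block (0.77 ± 0.23, adjusted p = 0.0565). Ect2, the exchange factor that activates RhoA at the division plane, differed by 0.76 ± 0.26 (adjusted p = 0.0811). Kif20a differed by 0.50, Kif20b by 0.55, Prc1 by 0.48 and Kif23 by 0.39. Racgap1, which forms the centralspindlin complex with Kif23, was the exception among the 37. It read 7.29, 7.57, 7.13 and 7.09 in controls and 7.25, 7.28, 7.07 and 7.51 in deficient arrays, a difference of 0.01 ± 0.15 with a 95% interval of -0.30 to 0.31, which turned to -0.01 after quantile normalization.

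All 5 genes of chromosome structure differed by 0.54 to 0.65, and none passed. Mki67 (Ki-67, the coat of mitotic chromosomes that is stained as a marker of cycling cells) read 9.18, 9.0, 9.25 and 9.31 in controls and 9.64, 9.28, 9.93 and 10.29 in deficient arrays. Its difference of 0.60 ± 0.19 came closest to the threshold (adjusted p = 0.0567). Top2a, the topoisomerase that untangles sister chromatids, differed by 0.54 ± 0.28, and the condensin subunits Smc2, Ncapg and Ncaph by 0.65, 0.58 and 0.55.

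**Figure D3:**
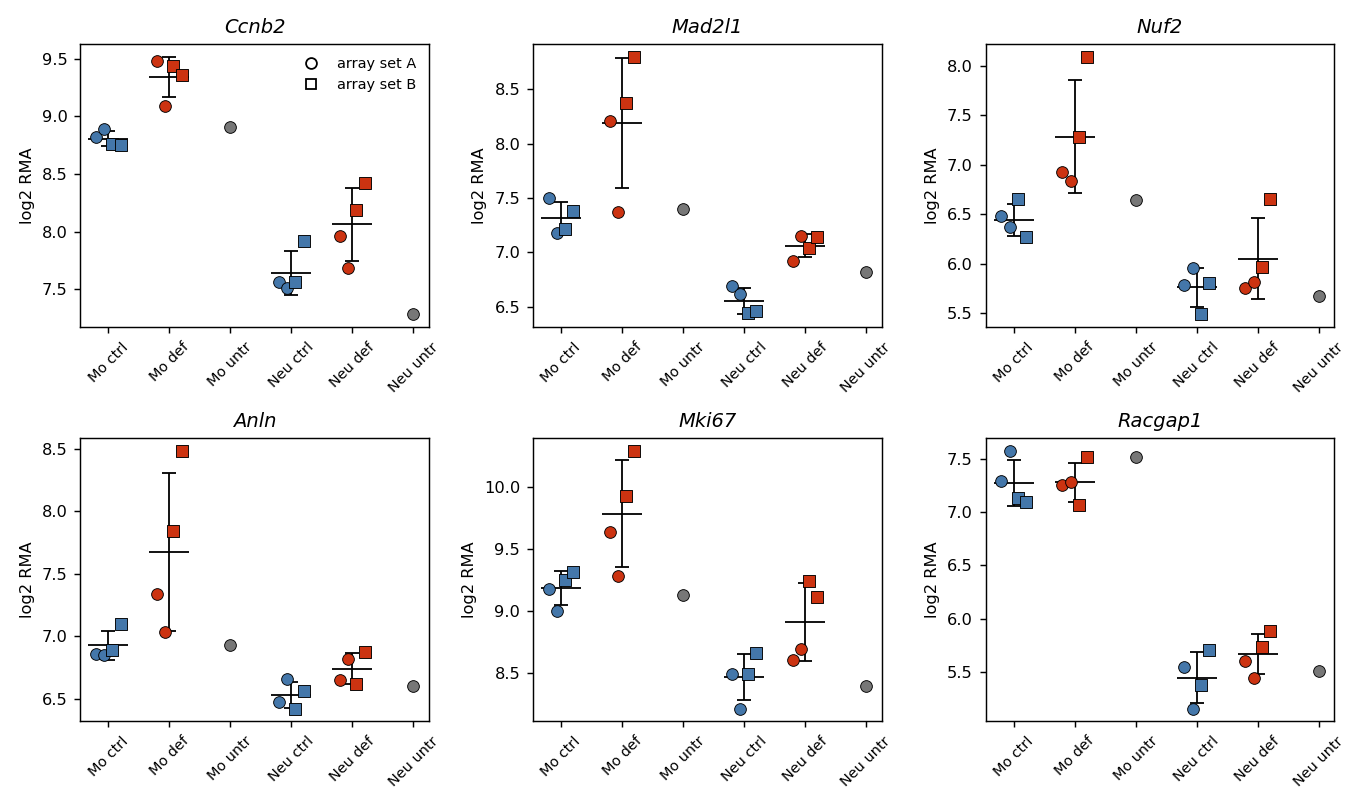
Log2 RMA level in each array of the 4 genes that rose in monocytes (Ccnb2, Mad2l1, Nuf2, Anln), of Mki67 and of Racgap1; Mo and Neu are monocytes and neutrophils, ctrl, def and untr are control, deficient and untreated, lines are means with SD (n = 4), circles are array set A and squares set B. Ccnb2 and Nuf2 had no overlap between deficient and control monocytes, and Racgap1 differed by 0.01.

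The monocyte differences were larger in array set B than in set A. Within set A, with 2 arrays a group, the mean of the 37 genes was 6.81 in controls and 7.0 in deficient monocytes. The median difference there was 0.22, 30 of 37 genes were above 0 and none was called, against 2.08% of all genes. Within set B the mean was 6.99 in controls and 7.92 in deficient monocytes, the median difference 0.92 and 32 of 37 genes were called, all but Aurka, Cenpf, Nusap1, Racgap1 and Cdc25c, against 8.13% of all genes. The difference between the sets, a comparison added after these values were seen, was above 0 for all 37 genes. Its median was 0.70, against -0.02 over all genes. By the limma test 0 of 37 genes differed between the sets, against 0.0448% of all genes, while 26 had an unadjusted p under 0.05 (smallest adjusted p = 0.17). With set as a block in the model, 20 of 37 genes were called, against 6.87% of all. With the title number as a replicate block, 7 were called (Ccnb2, Cdc20, Mad2l1, Cenpe, Ndc80, Nuf2 and Mki67), against 4.59% of all, and Anln was not.

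Single arrays also moved the count. Without deficient array 4 the median difference was 0.32 and 1 gene was called, Mad2l1, which is 2.7% of the 37 against 3.65% of all genes. Without deficient array 2 the median was 0.79 and 25 genes were called, 67.6% against 7.84% of all. Without control array 1, 2 or 5, or deficient array 3, Mad2l1 was likewise the one gene called, against 3.33% to 4.0% of all genes. Without control array 4 Mad2l1 and Nuf2 were called, 5.41% against 4.21% of all. In the fits that called Mad2l1 alone, the share of the 37 was no higher than that of all genes.

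**Figure D4:**
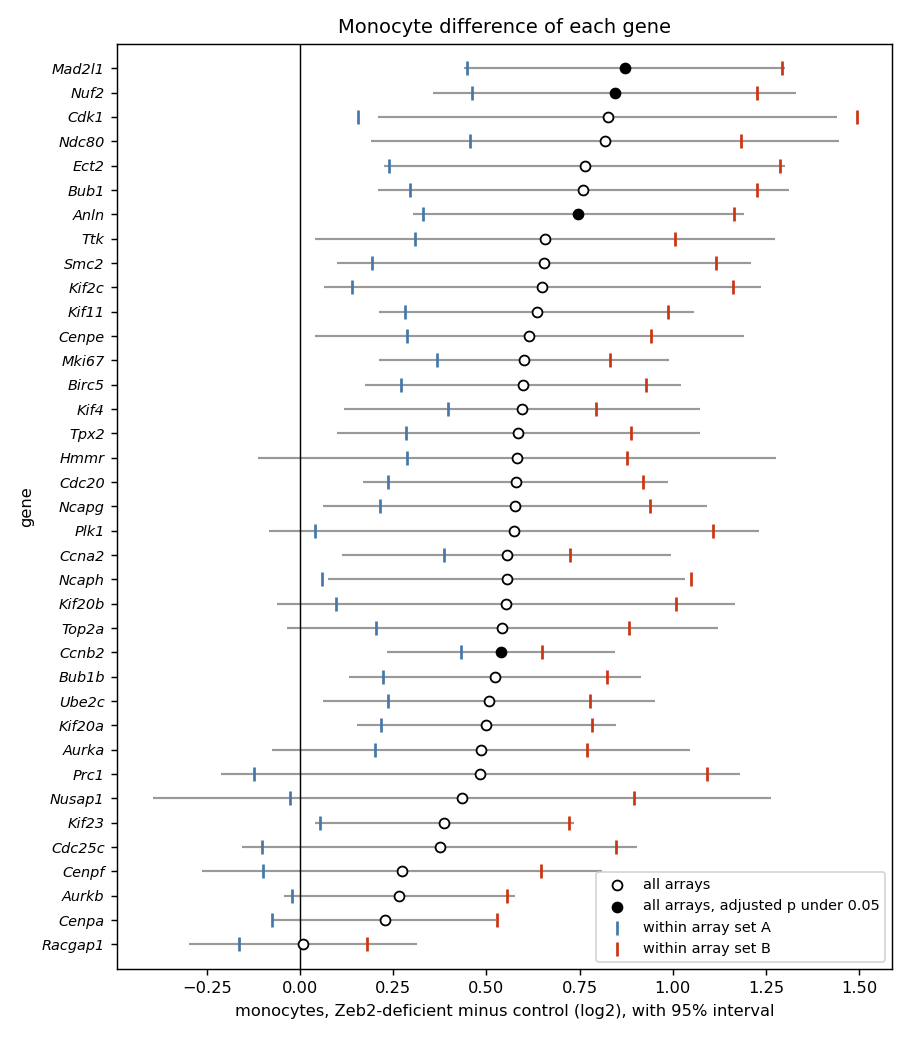
Difference between deficient and control monocytes for each of the 37 genes (log2), ordered by size: circles with 95% intervals are from all arrays, filled where the limma adjusted p is under 0.05, and short bars are the differences within array set A (blue) and set B (red). Every red bar lies to the right of its blue bar, and the 4 filled circles are Mad2l1, Nuf2, Anln and Ccnb2.

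Markers of granulocyte precursors differed in these samples too. In deficient monocytes 5.11% of all genes tested were higher and 2.44% lower, which stands beside each count below. Of 13 primary granule and promyelocyte genes, 10 rose in deficient monocytes and none was lower. Their mean was 6.86, 6.73, 8.15 and 7.57 in control arrays 1, 2, 4 and 5 and 9.37, 8.24, 9.59 and 9.78 in deficient arrays 1 to 4. Deficient array 2 was the lowest and array 4 the highest for this list as for the mitotic genes, and both set B controls were above both set A controls. The lists differed in other respects. Control array 4 was above control array 5 for this list and below it for the mitotic genes (6.95 and 7.03). The median difference of this list was 2.26 within set A and 2.13 within set B, against 0.22 and 0.92 for the mitotic genes. Elane (neutrophil elastase) read 6.64 to 9.78 in controls and 9.28 to 11.56 in deficient monocytes. Within set A, where none of the 37 genes was called, 9 of the 13 primary granule genes were, against 2.08% of all genes. Of 19 genes of mature neutrophils and secondary granules 16 rose, with a list mean of 6.73 to 7.85 in controls and 9.15 to 9.95 in deficient monocytes. Ly6g, a surface antigen that marks neutrophils, read 3.59 to 4.48 in controls and 8.35 to 9.59 in deficient monocytes. Of 10 tested stem and progenitor genes, Kit, Myb and Erg rose and Flt3 fell. Kit, Myb and Erg were also higher in control neutrophils (6.05, 7.07 and 7.89) than in control monocytes (4.52, 6.1 and 5.09). They therefore do not separate progenitors from neutrophils here. The stem and progenitor list mean was 4.70 to 4.94 in controls and 4.92 to 5.23 in deficient monocytes. Of the 17 monocyte markers 8 fell and none rose, and deficient array 2 had the highest list mean of the deficient group, 9.29, and array 4 the lowest, 8.25. Of 7 tested erythroid genes Tfrc rose, with a list mean of 4.10 to 4.27 in controls and 4.20 to 4.58 in deficient monocytes. Hdc and Siglecf rose among 6 eosinophil, mast cell and basophil genes, and Cd209a, Flt3 and Irf4 fell among 9 dendritic cell genes. Hdc and Siglecf were likewise higher in control neutrophils (10.72 and 6.13) than in control monocytes (5.39 and 5.49). No gene passed among 5 of B cell precursors, 7 of T and NK cells and 7 of megakaryocytes, nor had any an unadjusted p under 0.05. The part of any of these cell types in the mitotic differences was not tested.

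In neutrophils the same 37 genes were again all above 0, with smaller differences, against 6350 of all 13387 genes above 0. By the limma test 0 of 37 passed in either direction, against 0.105% of all genes higher and 0.0149% lower. The median difference was 0.30, against -0.01 over all genes. It was 0.19 within set A, with 30 of 37 genes above 0, and 0.43 within set B. Ccna2, Ccnb2, Mad2l1, Ect2 and Mki67 had an unadjusted p under 0.05, as did 683 of all 13387 genes. Ect2 had the smallest, and read 4.67, 5.09, 4.67 and 5.17 in controls and 5.69, 5.37, 5.55 and 6.15 in deficient arrays. The groups did not overlap, and the difference was 0.79 ± 0.26, or 1.73-fold, with a limma adjusted p of 0.718. The deficient arrays lay above all controls for Ccna2, Mad2l1, Kif11 and Ect2, 4 of 37 genes, against 1.84% of all genes. Ccna2 read 7.29 to 7.56 in controls and 7.76 to 8.21 in deficient arrays, and Mad2l1 6.44 to 6.69 and 6.92 to 7.15. At the other end Aurkb differed by 0.0048 and Cdc20 by 0.03. Deficient array 4 was the highest of its group for 26 genes and control array 5 for 24. The primary granule list mean was 5.89 to 6.04 in control and 5.98 to 6.72 in deficient neutrophils, highest in deficient array 4. None of the 37 was called under any alternative run, in a comparison that called few genes of any kind.

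The 2 cell types were then compared in their response. The monocyte difference exceeded the neutrophil difference for 33 of 37 genes, with a median excess of 0.25, and for 6161 of all 13387 genes. None of the 37 passed the limma test of that excess, against 2.17% of all genes higher and 0.515% lower. None of the 37 had an unadjusted p under 0.05. Cdc20 came nearest, with 0.55 ± 0.28 (limma adjusted p = 0.406), from 0.58 in monocytes and 0.03 in neutrophils. Ect2 and Ccna2 differed about equally in both cell types, by 0.76 and 0.79 for Ect2 and 0.55 and 0.58 for Ccna2. Without deficient monocyte array 4 the median excess was -0.01. Within set A it was 0.01, with 19 of 37 genes above 0, and within set B 0.47, with 35 above 0. Cdk1 passed within set B, which is 2.7% of the 37 against 3.63% of all genes. The genes of DNA replication and S phase differed from this in part. Of 38 tested, 24 rose in deficient monocytes, against 5.11% of all genes. Their median was 0.77 in monocytes and 0.07 in neutrophils. In neutrophils 8 of the 38 in controls and 9 in deficient samples had a mean below the 40th percentile, where a difference can be missed. In the test of the excess 5 of them (Ccne1, Cdc6, Mcm2, Mcm3 and Orc1) passed, against 2.17% of all genes. Without deficient monocyte array 4, 20 of the 38 were called, against 1 of the 37 mitotic genes and 3.65% of all genes.

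**Figure D5:**
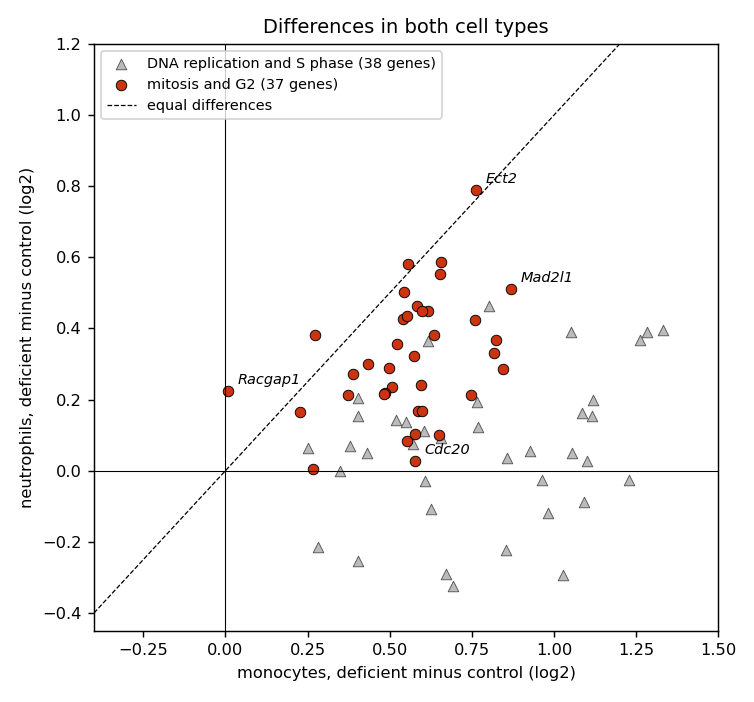
Difference between deficient and control samples in monocytes (x axis) and in neutrophils (y axis), log2, for the 37 mitosis and G2 genes (circles) and 38 DNA replication and S phase genes (triangles); the dashed line marks equal differences. The circles lie above 0 on both axes with medians of 0.58 and 0.30, and the triangles spread around 0 on the neutrophil axis with medians of 0.77 and 0.07.

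Between controls, 34 of the 37 genes had a higher mean in monocytes than in neutrophils, as did 6022 of all 13387 genes. Of the 37 genes 20 were higher and 1 lower by the limma test, against 29.9% of all genes higher and 28.7% lower, and the median difference was 0.60 against -0.08 over all genes. Racgap1 differed most, at 7.09 to 7.57 in control monocytes and 5.16 to 5.71 in control neutrophils, a difference of 1.82 ± 0.15 or 3.53-fold (adjusted p = 6.58e-09). All 4 checkpoint genes were higher in monocytes, by 0.77 to 1.41 with Bub1b at the top, and so were all 5 chromosome structure genes, by 0.70 to 1.21. Ccnb2 was 1.17 and Ccna2 0.95 higher. The differences nearest 0 were those of Cdc20 (-0.08), Ube2c (0.05), Aurka (-0.13) and Cenpf (0.03), and none of these 4 passed. The 95% interval was -0.49 to 0.33 for Cdc20. Kif23, the kinesin of centralspindlin, went the other way from its partner Racgap1. It read 7.64 to 7.69 in control monocytes and 7.93 to 8.35 in control neutrophils, and its difference of -0.50 ± 0.17 passed (adjusted p = 0.016), though not without control neutrophil array 2 or within set B. Quantile normalization lowered the number of higher genes to 12, with a median of 0.39, and turned the differences of Ube2c and Cenpf below 0. The 12 genes are 32.4% of the 37, against 26.7% of all genes in that setting.

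Between deficient monocytes and deficient neutrophils, 26 genes were higher and none lower, against 30% and 32.1% of all genes, with a median difference of 0.84. Racgap1 (1.60 ± 0.15) and Bub1b (1.58 ± 0.19) led again. In the main fit Cdk1, Cdc20, Cenpe, Ndc80, Kif2c and Anln were higher here and did not pass in the comparison of controls. No gene that was higher between the controls was lost in that fit. With only the arrays compared in the fit, 25 genes were higher between controls, 67.6% against 31.2% of all. Between deficient cells there were 19, 51.4% against 27.7%. Cdk1, Cenpe and Anln then passed between controls, and Cdk1, Cdc20, Cenpe, Ndc80, Ttk, Ect2 and Top2a did not between deficient cells. Quantile normalization lowered the count between deficient cells to 19, 51.4% against 26.4% of all. Without deficient monocyte array 4 the count was 19, the median 0.50, and Kif23 passed as lower.

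The genes varied together when the deviations within the treated groups were pooled. After each group's mean was removed, the median correlation between 2 of the 37 genes over the 16 treated arrays was 0.77 (666 pairs). The genes share arrays and processing, so this is a description. The SD of their mean per array was 0.61 in deficient monocytes and 0.11 to 0.21 in the other treated groups. Deficient monocytes therefore weigh most in these correlations, which were not computed for single groups. The correlation with the mean of the others was above 0.8 for 31 genes and lowest for Racgap1 (0.34) and Ccnb2 (0.46). The 10 other genes tested whose levels followed the mean of the 37 most closely over the 18 arrays were Kif15 (r = 0.975), Dlgap5, Tacc3, Cenpc1, Knl1, Cdca3, Fbxo5, Cip2a, Shcbp1 and Bora (r = 0.955). Kif15, a spindle motor, rose by 0.89 in deficient monocytes (adjusted p = 0.0271), and Fbxo5 (Emi1, an inhibitor of the anaphase-promoting complex) by 0.80.

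Further genes of the pathway were counted from lists by function. In deficient monocytes 5.11% of all genes tested were higher and 2.44% lower, and 2699 of 13387 had an unadjusted p under 0.05. These shares stand beside each monocyte list below. Of 79 other tested genes of mitosis and G2 phase, 18 rose in deficient monocytes and none was lower, with a median of 0.59. Those with the smallest p were Ncapg2, a condensin II subunit (0.88 ± 0.15, adjusted p = 0.000944), Wee1, the kinase that restrains Cdk1 (0.999 ± 0.184), Cenph (1.17 ± 0.25) and Oip5 (0.71 ± 0.15). Without deficient array 4, 5 of the 79 were called higher, against 3.65% of all genes. Of 22 tested regulators of cell cycle transcription 7 rose and none was lower. Tfdp1, the dimer partner of E2F factors, rose by 0.94 ± 0.15 and read 8.97 to 9.54 in control and 9.76 to 10.43 in deficient monocytes. E2f7 rose by 0.86 ± 0.15, E2f3 by 0.78 ± 0.17 and E2f8 by 0.63 ± 0.14, and E2f3, E2f7 and Tfdp1 passed the test of the excess over neutrophils. Nfyb was also among the 7 that rose, whereas the activators B-Myb and FoxM1 did not pass. Mybl2 (B-Myb) differed by 0.60 ± 0.18 (adjusted p = 0.0529) and Foxm1 by 0.58 ± 0.20 (adjusted p = 0.0849), with deficient array 4 highest for both, at 6.90 and 7.70. Among 15 subunits of the anaphase-promoting complex, which acts in mitosis but is present through the cycle, none was called in either direction and none had an unadjusted p under 0.05, with a median of 0.04. Of 6 G1 cyclins and kinases Cdk2 (0.89 ± 0.14) and Cdk6 (1.40 ± 0.33) rose. Of 6 measured CDK inhibitors none was called, none had an unadjusted p under 0.05, and their differences ran from -0.06 for Cdkn1b to 0.26 for Cdkn2d. In neutrophils no gene of these lists was called, against 0.105% of all genes higher and 0.0149% lower. An unadjusted p under 0.05 was found for 3 of the 79 other mitosis and G2 genes, 2 of the 22 regulators and 1 of the 15 subunits. It was found for 1 of the 6 G1 genes and none of the CDK inhibitors, and for 683 of all 13387 genes.

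The untreated arrays, 1 per cell type and so without a test, bear on the poly(I:C) given to both genotypes. The untreated monocyte array lay within the range of the 4 treated controls for 26 of 37 genes, above it for 5 and below it for 6, with a median of -0.03 against their mean. The untreated neutrophil array lay within the range for 19, above it for 2 and below it for 16, with a median of -0.26. For Ccnb2 it read 7.28 against 7.51 to 7.92, and for Top2a 7.52 against 7.48 to 8.30.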

How the data were processed

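RNA was isolated with RNAqueous-Micro, amplified with Ovation PicoSL and hybridised to Affymetrix Mouse Gene 1.0 ST arrays, per the labels' protocols. The deposited values are log2 signals that the authors made with RMA, per the submitters' processing notes. RMA equalises array distributions, so a change shared by most genes would not show. Of 30177 probe sets, 21789 have 1 gene symbol, 1621 several and 6767 none. A gene was read by its brightest probe set with 1 symbol, and kept if 4 or more of the 18 arrays put it above their 40th percentile.

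A model with 1 mean per group over all 18 arrays was fitted in limma 3.58.1 (R 4.3.3) with a variance trend, and p-values were adjusted by Benjamini-Hochberg over 13387 genes, with a threshold of 0.05. The script was tested on simulated data. Same-numbered control and deficient arrays of 1 cell type deviated together in 6 of 6 pairs (r 0.183 to 0.428), all of them within 1 array set. In each cell type control array 5 has no deficient array of its number. Deficient array 3 shares its number only with the untreated control, which is in the other set. The model above has no block, and the fit with the number as a replicate block is an alternative, given beside the monocyte counts it changed. Control and deficient arrays of different numbers in 1 set also deviated together (r 0.127 to 0.348). Those of different sets gave r -0.344 to -0.085. Deviations from a group mean sum to 0, so positive values within sets force negative ones across sets on average. The negative values are therefore no separate evidence. The check therefore cannot tell pairing by number from membership of a set, and whether the numbers pair the arrays is not known. The highest correlation between 2 arrays was 0.993, and none was taken for a duplicate.

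The members and lists were chosen with earlier results of these data known. Every member is named. Of each pathway list, up to 4 genes with the smallest p in monocytes, Foxm1, Mybl2 and the CDK inhibitors may be named, of marker lists up to 4 defining markers, and by likeness the 10 genes best correlated with the members' mean. Called marker genes of short lists and Nfyb were also named, after their values were seen. Alternatives were quantile normalization, filters, probe set choice, array weights, the blocks, the array sets and leaving out each array. Their number limits the precision. Promoter motifs were searched with Python 3.11.15.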

Additional observations from a re-analysis of the deposited data

Results flagged for a closer look

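In 5 of 152 groups of 4 arrays, 1 array stood far from the other three by its gap over the group's range, and chance does this in about 1 in 20 groups. In control neutrophils array 5 was high for Ccnb2 (7.92, others 7.51 to 7.56), Tpx2 (6.58, others 5.96 to 6.06) and Hmmr (6.51, others 5.60 to 5.75). In control monocytes array 5 was high for Anln (7.10, others 6.85 to 6.89), and array 4 was low for Aurkb (7.17, others 7.25 to 7.27).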

How the results depend on the processing

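The count of mitosis and G2 genes called higher in deficient monocytes, 4 of 37, depended on the processing more than their direction did. With only the arrays compared in the fit it was 1 (Ccnb2), 2.7% of the 37 against 2.97% of all genes. It was 7 with the replicate block (18.9% against 4.59%) and 16 with array weights (43.2% against 7.22%). With array set as a block it was 20 (54.1% against 6.87%), within set A 0 (against 2.08%) and within set B 32 (86.5% against 8.13%). Without single arrays it was 1 to 25 (2.7% to 67.6%, against 3.33% to 7.84%). The median difference was 0.223 within set A and 0.921 within set B. Below 0 came Racgap1 with quantile normalization (-0.010) and array weights (-0.052), and without single arrays Racgap1 (-0.069 to 0.107), Cenpf (-0.013 to 0.499) and Nusap1 (-0.065 to 0.723). Within set A so did Cdc25c (-0.101), Aurkb (-0.023), Cenpa (-0.075), Cenpf (-0.099), Nusap1 (-0.027), Racgap1 (-0.163) and Prc1 (-0.124). The cause was not tested. In neutrophils 0 genes were called under every alternative run. In the comparison of the responses 1 was within set B (2.7%, against 3.63% of all genes). Between control monocytes and neutrophils quantile normalization gave 12 higher genes, and the count of lower genes was 0 within set B and 0 to 1 without single arrays. Between deficient cells the count of lower genes was 1 with the filter at the 60th percentile, array weights, the random block, array set as a block or within set A, and 0 to 1 without single arrays. There the higher genes numbered 17 within set A and the median ran from 0.500 to 1.093 without single arrays. The replicate block changed the call of Cdc20, Cenpe, Ndc80, Mki67 and Anln in monocytes. With 4 arrays a group, and 2 within a set, a gene that missed the threshold is not shown to be the same in both groups.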
